A study of Mus musculus with 4 samples.

Results

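Transcript levels of 37 genes of cell-matrix adhesion were examined in cultured mouse alveolar type II cells. The genes encode 10 integrin alpha chains, 7 integrin beta chains, 10 laminin chains, 4 nidogens and proteoglycans, 4 other matrix receptors or their partners, and 2 adhesion kinases. They were selected by gene symbol, and all 37 were found among the 28096 gene identifiers of the tables. Polyadenylated RNA was sequenced in 4 libraries, all with the genotype label KRasEtv wt. The series design lists 3 genotypes, all of which carry KRaswt/d12 and RosaCreERT2, the latter a tamoxifen-inducible Cre recombinase from a broadly active locus. One of them has no further allele, another adds Etv5loxp/loxp, and the remaining one adds both Etv4KO/KO and Etv5loxp/loxp. The labels do not say which of the 3 genotypes KRasEtv wt stands for, and they give no age, strain or sex. Cells were sorted from lung for EpCAM and against podoplanin, CD31, CD45 and CD24. They were then embedded in matrigel with 100 nM 4-hydroxytamoxifen in bronchial epithelial growth medium for 4 days, and kept for 1 day more without the drug. Matrigel is itself a basement membrane extract rich in laminin, collagen IV and nidogen, so the cells were surrounded by matrix protein that RNA sequencing does not measure. No replicate numbers are in the labels, and libraries 1 to 4 are numbered by accession.

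Basement membranes are thin sheets of matrix under epithelia. Laminins, trimers of an alpha, a beta and a gamma chain, assemble into a network on the cell surface, and nidogen and heparan sulfate proteoglycans link this network to collagen IV. Cells bind the sheet through integrins, which are dimers of an alpha and a beta chain, and through dystroglycan and syndecans. In the alveolus, type II cells rest on such a sheet.

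Between 12133251 and 13591876 reads were counted per library. Levels are given as nRPKM, the authors' read density per gene length, adjusted by library size factors, so that genes and libraries can be compared per length. A mean level is followed by its SD over the 4 libraries. The labelled cell type was checked against its markers: all 10 type II markers had at least 1 nRPKM in every library, and the surfactant gene Sftpc ranged from 6301 to 14834 nRPKM. Of 8 type I markers, 7 also did, among them the podoplanin gene Pdpn at 16.2 to 28.4 nRPKM. At least 1 nRPKM in every library was also reached by 38.8% of all identifiers, 3 of 4 club cell markers and 3 of 6 basal airway markers. Library 3 stood apart in Xist, at 66.3 nRPKM against 0.255 to 0.784 in the others. Whether the libraries come from separate mice is not stated, so tests over them measure the spread between these libraries, part of which may be technical. In bulk RNA, fewer cells of a type and less RNA per cell cannot be told apart.

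Of the 37 genes, 26 (70.3%) had at least 1 nRPKM in all 4 libraries, a level reached by 38.8% of all identifiers. Itgb3 passed in 3 libraries, and 10 genes were below 1 nRPKM in every library. Over all 37 genes, the median of the mean levels was 6.22 nRPKM, against 0.345 over all identifiers. The genes were proposed as known adhesion genes of an epithelium with results of these libraries in view, so this share is given as a description. Syndecan-4 (Sdc4) and integrin beta 1 (Itgb1) had the highest mean levels of the set, and the laminin chain Lamc3 had the lowest. In library 2, Itgb1 was below Sdc1 and Dag1.

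**Figure D1:**
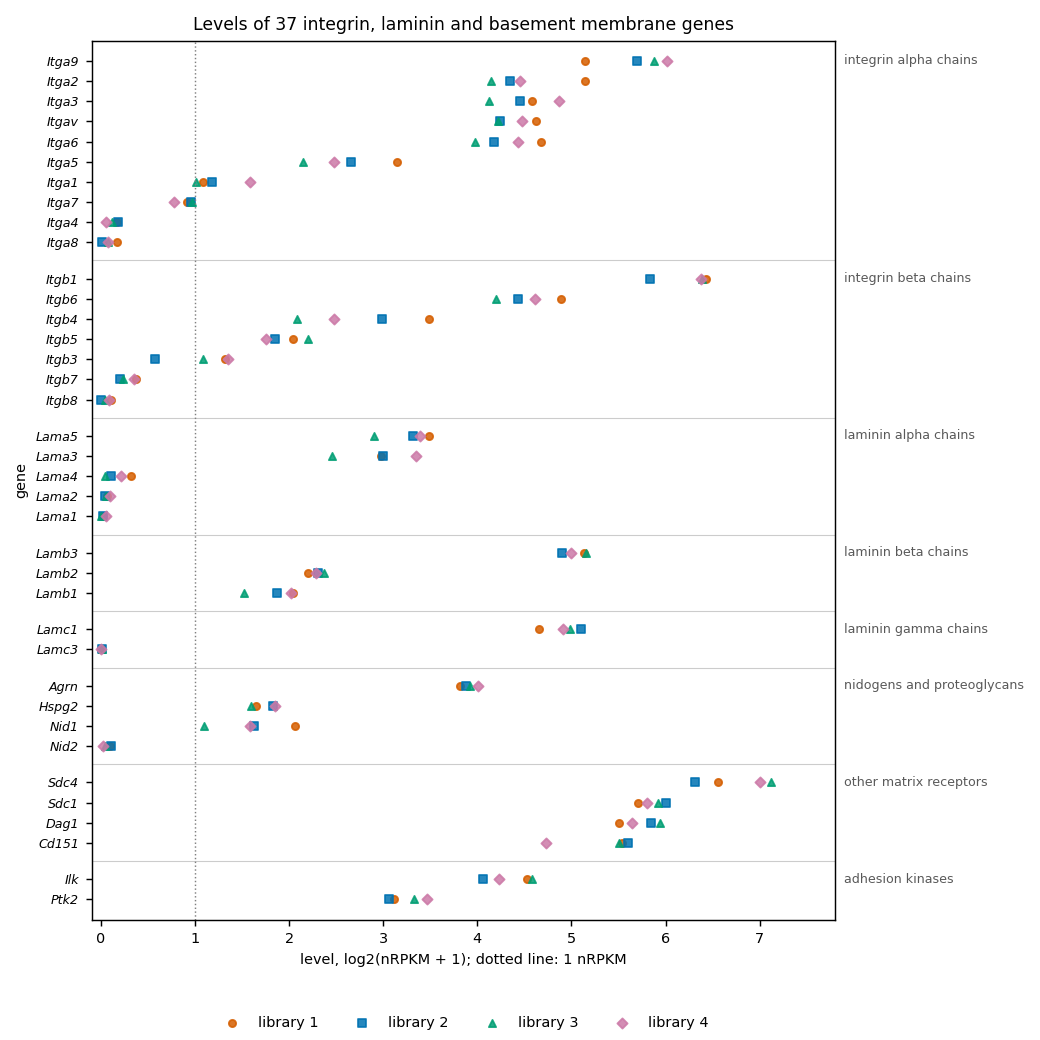
Level of each of the 37 genes, as log2(nRPKM + 1) on the horizontal axis, with a point for each of the 4 libraries and genes grouped by role. Sdc4 and Itgb1 have the highest means, the library 2 point of Itgb1 (55.9 nRPKM) lies left of those of Sdc1 and Dag1, and 10 genes lie below 1 nRPKM in every library.

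The series asks about targets of the Etv factors, which are ETS-family transcription factors, so the promoters of the most abundant chains are shown as context. An ETS motif was searched as CCGGAA, a longer string than the ETS core GGAA, on both strands in the 250 bases before the transcription start. RefSeq sequences of build GRCm38.p6 were found for 26 of the 37 genes, with 33 starts. The files use mm9, so these coordinates belong to the sequences only. The letters occurred at 5 of the 33 starts (15.2%), those of Itga3, Nid1, Sdc4 and both starts of Ilk, and at 12.03% of all 32851 starts in the table. The windows of both Ilk starts overlap and hold the same match. Counted by gene, 4 of 26 (15.4%) had a match, close to the 13.6% of all 27025 genes. The most abundant integrin alpha, integrin beta, laminin beta and receptor genes are shown, together with Itga3 as the integrin gene with a match. Each reads 5′ to 3′ along the gene's strand. Capitals mark CCGGAA or its reverse complement, and GGAA without the preceding CC is not marked. For Lamb3, the upstream one of 2 starts is shown, and for Itga3 the upstream one of 2.
Itga9, chr9:118711442-118711691, plus strand: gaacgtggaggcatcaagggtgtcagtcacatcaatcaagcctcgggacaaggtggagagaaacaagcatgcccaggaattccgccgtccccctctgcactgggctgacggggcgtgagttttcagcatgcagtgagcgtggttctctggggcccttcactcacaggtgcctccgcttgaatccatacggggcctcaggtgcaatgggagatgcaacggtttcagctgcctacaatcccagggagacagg
Itgb1, chr8:128685404-128685653, plus strand: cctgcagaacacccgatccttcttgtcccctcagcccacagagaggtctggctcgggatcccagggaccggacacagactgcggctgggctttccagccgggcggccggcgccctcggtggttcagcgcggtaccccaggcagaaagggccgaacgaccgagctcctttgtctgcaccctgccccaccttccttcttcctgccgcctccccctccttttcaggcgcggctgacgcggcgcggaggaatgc
Lamb3, chr1:193301744-193301993, plus strand: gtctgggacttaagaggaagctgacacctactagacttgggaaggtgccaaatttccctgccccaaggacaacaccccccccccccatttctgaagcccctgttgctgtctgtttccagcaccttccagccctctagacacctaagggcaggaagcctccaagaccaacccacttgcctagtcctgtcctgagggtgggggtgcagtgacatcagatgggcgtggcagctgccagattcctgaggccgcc
Sdc4, chr2:164443189-164443438, minus strand: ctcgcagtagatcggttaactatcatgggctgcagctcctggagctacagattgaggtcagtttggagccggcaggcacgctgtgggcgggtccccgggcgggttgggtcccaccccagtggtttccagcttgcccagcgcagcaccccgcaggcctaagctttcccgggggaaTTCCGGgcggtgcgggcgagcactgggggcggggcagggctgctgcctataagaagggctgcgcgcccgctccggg
Itga3, chr11:95076715-95076964, minus strand: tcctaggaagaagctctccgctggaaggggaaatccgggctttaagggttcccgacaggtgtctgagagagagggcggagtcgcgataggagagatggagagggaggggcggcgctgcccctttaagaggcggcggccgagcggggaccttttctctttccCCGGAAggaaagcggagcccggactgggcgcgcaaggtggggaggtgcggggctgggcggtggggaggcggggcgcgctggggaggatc
The match at Sdc4 began 76 bases before the start and that at Itga3 began 89 bases before it. A match is a stretch of letters and not a measured site, and its absence in the other 3 windows says only that these letters are not there.

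Among integrin beta chains, Itgb1 was the main transcript and Itgb6 came second. Itgb1, the shared partner of most alpha chains, had 85.1, 55.9, 82.5 and 81.8 nRPKM in libraries 1 to 4. Library 2 was low and the other libraries lay close together. Itgb1 made up 69.7% ± 5.43 (SD, n = 4) of the summed nRPKM of the 7 beta chains. Itgb6, an epithelial chain whose dimer with the alpha v chain activates latent TGF-beta, had 28.5, 20.6, 17.4 and 23.4 nRPKM, or 20.6% ± 3.31 of the sum (SD, n = 4). Every library had more Itgb1 than Itgb6, with no overlap between their values. Itgb4, the beta chain of hemidesmosomes, had 10.2, 6.92, 3.23 and 4.58 nRPKM, and its highest library exceeded its lowest by 3.15 times. Libraries 1 and 2 were the high ones for this gene.

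The remaining beta chains were low. Itgb5, a vitronectin receptor chain, had 2.92 ± 0.546 nRPKM. Itgb3, known from platelets and endothelium, had 1.48, 0.487, 1.12 and 1.55 nRPKM from 50 to 175 reads, with library 2 low. Itgb8, which also forms a receptor for latent TGF-beta, was counted with 5, 0, 2 and 3 reads, so it was at or near the limit of 3 reads that a count of 0 allows. Itgb7, a lymphocyte homing chain, reached at most 0.294 nRPKM.

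The difference of Itgb6 from Itgb5, Itgb3 and Itgb8 was taken within libraries as log2(nRPKM + 1). It was 2.57 ± 0.40 from Itgb5, 3.45 ± 0.33 from Itgb3 and 4.47 ± 0.26 from Itgb8 (SD, n = 4), and positive in 4 of 4 libraries each time. With Itgb8 near 0, the last of these sizes is set by the pseudocount, and it was 7.32 with a pseudocount of 0.1. The Itgb1 level exceeded that of Itgb4 by 3.50 ± 0.72 on the same scale, again in 4 of 4 libraries. Each of these had p = 0.125 in a two-sided exact sign-flip permutation test, the smallest p that 4 libraries allow, so no such comparison can pass 0.05. Adjusted over the 16 pairs of chains that were compared, p was 0.133 in the same exact permutation test.

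Integrin alpha chains were led by Itga9, which pairs with beta 1 and binds tenascin-C and osteopontin among others. Its level was 34.2, 50.9, 57.9 and 63.9 nRPKM in libraries 1 to 4, and it accounted for 36.3% ± 9.45 (SD, n = 4) of the summed alpha chains. Library 1 was the low one, and there Itga2 was level with it. In the remaining libraries Itga9 was the highest alpha chain, without overlap with any other alpha chain. Itga9 shares none of its 50-base words with another annotated gene, which bears on its count from uniquely aligned reads.

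Below Itga9 came 4 chains whose levels overlapped. Itga2, a collagen and laminin receptor chain, had 34.4, 19.4, 16.7 and 20.9 nRPKM, with library 1 far above the rest. Itga3, a laminin receptor chain of lung and kidney epithelium, had 23.0, 20.8, 16.4 and 28.2 nRPKM. Itga6, the laminin receptor chain that joins either beta 1 or beta 4, had 24.5, 17.0, 14.7 and 20.6 nRPKM. Itgav, the alpha v chain of receptors for the RGD motif, had 23.7, 17.9, 17.7 and 21.3 nRPKM. Library 3 was the lowest for all 4 of these chains. Itga3 differed from Itga6 by 0.19 ± 0.22 in log2(nRPKM + 1), with library 1 going the other way (two-sided exact permutation test, p = 0.25, adjusted p = 0.25, n = 4), so their order was within the spread between libraries. The size of this difference depends on the length correction: in CPM it was 0.41 with all 4 libraries positive (exact permutation p = 0.125), and on the nRPKM scale it was 0.11 without library 4.

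Itga5, the fibronectin receptor chain, had 7.84, 5.31, 3.42 and 4.55 nRPKM. It lay 1.79 ± 0.30 below Itgav (log2 scale, SD, n = 4), in 4 of 4 libraries. The collagen receptor chain Itga1 had 1.35 ± 0.444 nRPKM, 3.31 ± 0.52 below Itga2 on the log2 scale and also in 4 of 4 libraries. Both pairs had the smallest exact permutation p, 0.125, and an adjusted p of 0.133. Itga7, a laminin receptor chain of muscle, had 0.871 ± 0.107 nRPKM from 47 to 80 reads. Itga4, found mainly on leukocytes, and Itga8, found on mesenchyme, reached at most 0.132 nRPKM.

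**Figure D2:**
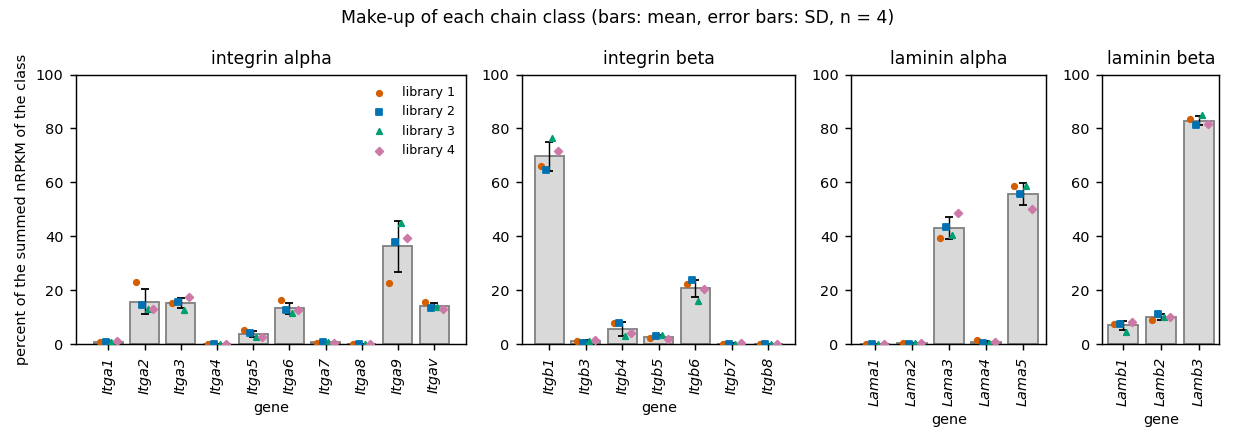
Percent of the summed nRPKM of a class on the vertical axis for each chain, in 4 panels (integrin alpha, integrin beta, laminin alpha, laminin beta). Bars are means, error bars are SD over 4 libraries and points are libraries. Itgb1 and Lamb3 take most of their classes, the alpha integrins are spread over 5 chains led by Itga9, and the laminin alpha sum is divided between Lama5 and Lama3.

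Levels of known partners were set side by side, a choice made after the values were seen and given with no test. Itgb6 and Itgav were nearly equal, with an Itgb6 to Itgav ratio of 1.21, 1.15, 0.984 and 1.10 in libraries 1 to 4. The ratio of reads, without a length correction, was 0.804 ± 0.0686. Itga6 exceeded its hemidesmosome partner Itgb4 by 2.41, 2.46, 4.56 and 4.51 times, so the excess was larger in libraries 3 and 4. Summed over chains, alpha integrins had 144 ± 15.3 nRPKM and beta integrins 109 ± 17.5 (SD, n = 4).

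Of the 10 laminin chains, 6 had at least 1 nRPKM in all libraries, a level reached by 38.8% of all identifiers. Of the alpha chains, which carry the main cell-binding part, Lama5 and Lama3 were present and the others were near 0. Lama5, the chain of most adult basement membranes, had 10.2, 8.94, 6.47 and 9.47 nRPKM. Lama3, the chain of the epithelial laminin that anchors hemidesmosomes, had 6.89, 6.99, 4.48 and 9.20 nRPKM. Library 3 was lowest for both, and their ranges overlapped. Within libraries, Lama3 minus Lama5 was -0.33 ± 0.21 in log2(nRPKM + 1) and negative in each library (p = 0.125 and adjusted p = 0.133, exact permutation test). In library 4 this difference was only -0.04. In CPM, without a length correction, the mean was -0.51.

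Lama1, the embryonic chain that is abundant in the tumour source of matrigel, was counted with 3, 2, 0 and 6 reads. The muscle chain Lama2 had 5 to 11 reads and the vascular chain Lama4 had 4 to 29 reads, or 0.0337 to 0.251 nRPKM. Lama5 exceeded Lama1 in each library, by 3.25 on the log2 scale with a pseudocount of 1 and by 6.24 with 0.1, so the size depends on the pseudocount.

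Lamb3, the beta chain of the hemidesmosomal laminin, dominated its class with 34.2, 28.8, 34.6 and 30.8 nRPKM, or 82.9% ± 1.76 of the summed beta chains (SD, n = 4). Its level was even between libraries, with a coefficient of variation of 8.66%. Lamb2, known from kidney and synapse, had 3.89 ± 0.230 nRPKM, and the widespread Lamb1 had 2.67 ± 0.569. Lamb3 exceeded Lamb1 by 3.18 ± 0.30 and Lamb2 exceeded Lamb1 by 0.43 ± 0.30 on the log2 scale, both in 4 of 4 libraries. Both had the smallest exact permutation p of 0.125.

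Lamc1, the common gamma chain, had 24.2, 33.3, 30.6 and 29.2 nRPKM. Lamc3 had 0, 1, 1 and 0 reads, within the 3 reads that a count of 0 allows, and Lamc1 exceeded it by 4.91 on the log2 scale with a pseudocount of 1 and by 8.13 with 0.1. Lamb3 exceeded Lama3 by 3.35 to 7.71 times, with library 3 at the upper end, and by 1.31 to 3.02 times in reads without a length correction.

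Laminin alpha chains summed to 15.9 ± 3.43 nRPKM and beta chains to 38.7 ± 2.62 (SD, n = 4). The beta sum was 1.99 to 3.68 times the alpha sum, and the sums did not overlap. In reads, which have no length correction, the beta to alpha ratio was 0.802 to 1.45 and did not keep 1 direction. The order of alpha and beta sums therefore rests on the authors' gene lengths, which the sources used here do not give. The ratios of chains and sums were chosen after the values were seen and have no test.

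Of the genes that link laminin to the rest of the sheet, agrin was the highest. Agrn, a heparan sulfate proteoglycan that binds laminin and dystroglycan, had 13.1, 13.7, 14.1 and 15.1 nRPKM and was among the evenest genes of the set. Hspg2, the perlecan gene, had 2.32 ± 0.293 nRPKM and was below Agrn in each library, with a mean Hspg2 minus Agrn of -2.18 ± 0.11 on the log2 scale (SD, n = 4). Nid1, which bridges laminin and collagen IV, had 3.18, 2.10, 1.14 and 1.99 nRPKM, with library 1 high and library 3 low. Its paralog Nid2 had 1 to 7 reads, or 0.048 nRPKM on average, and was 1.52 ± 0.37 lower on the log2 scale, a size set by the pseudocount (3.84 with a pseudocount of 0.1). Both differences had an exact permutation p of 0.125 and an adjusted p of 0.133.

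Collagen IV, the other network of the sheet, was represented by 5 of 6 chains at 1 nRPKM or more in all libraries. Col4a2 and Col4a1, the chains of the common trimer, had 79.8 ± 26.2 and 68.5 ± 13.5 nRPKM. Col4a3, a chain of the trimer found in alveoli and glomeruli, had 15.2 ± 3.12. Of 17 further basement membrane genes, 6 reached 1 nRPKM in all libraries. Across all identifiers 38.8% reached this level, which is also the share to set beside the collagen IV count. The highest were the collagen-binding Sparc (471 ± 55.6), the integrin ligand Egfl6 (212 ± 81.7) and the laminin receptor Bcam (66.5 ± 12.6; SD, n = 4 throughout).

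All 4 of the other matrix receptors were abundant. Sdc4, a heparan sulfate proteoglycan of focal adhesions, had 93.4, 78.5, 139 and 127 nRPKM, the highest mean of the 37 genes. Sdc1, the epithelial syndecan, had 51.4, 63.0, 59.5 and 54.8 nRPKM. Libraries 3 and 4 were the high ones for Sdc4, and the values of the syndecans did not overlap. Sdc4 exceeded Sdc1 by 0.89 ± 0.42 on the log2 scale in each library (p = 0.125 and adjusted p = 0.133, exact permutation test), and by 0.59 in CPM without a length correction. Dag1, which encodes both dystroglycan subunits, had 44.4, 56.4, 60.3 and 48.9 nRPKM. The tetraspanin Cd151, a partner of laminin-binding integrins, had 45.3, 47.4, 44.4 and 25.6 nRPKM, with library 4 low.

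The adhesion kinases were both present. Ilk, the integrin-linked pseudokinase that ties beta tails to actin, had 22.0, 15.6, 22.9 and 17.8 nRPKM. Ptk2, the focal adhesion kinase, had 7.66, 7.34, 9.02 and 10.1 nRPKM. Ilk exceeded Ptk2 by 1.11 ± 0.29 on the log2 scale in each library (exact permutation p = 0.125), but in CPM without a length correction the mean difference was -0.21. Ilk also shares 73.2% of its 50-base words with another annotated gene, so its level is uncertain. Of the other genes, Itga4 shares 10.9% and the rest 8.17% or less.

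Linker genes of focal adhesions and hemidesmosomes were largely present, with 22 of 26 at 1 nRPKM or more in all libraries. Across all identifiers 38.8% reached this level, the share to set beside each list count given here. The tetraspanin genes Cd81 (194 ± 56.4 nRPKM) and Cd9 (94.9 ± 26.3) and the actin crosslinker Actn4 (94.4 ± 9.03) were highest. Among 13 integrin ligands outside the basement membrane, 9 reached 1 nRPKM in all libraries. Osteopontin (Spp1), a ligand of the alpha v and alpha 9 integrins, had 274, 160, 58.2 and 178 nRPKM. E-cadherin (Cdh1), the ligand of an integrin of intraepithelial lymphocytes, had 147 ± 15.97 and fibronectin (Fn1) had 30.2 ± 14.7 (SD, n = 4). No read was counted for vitronectin (Vtn). Of 10 integrin chains outside the set, 1 reached 1 nRPKM in all libraries, the leukocyte beta chain Itgb2 at 3.03 ± 1.87. The leukocyte alpha chains Itgam (1.24 ± 0.457) and Itgax (1.05 ± 0.751) followed.

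**Figure D3:**
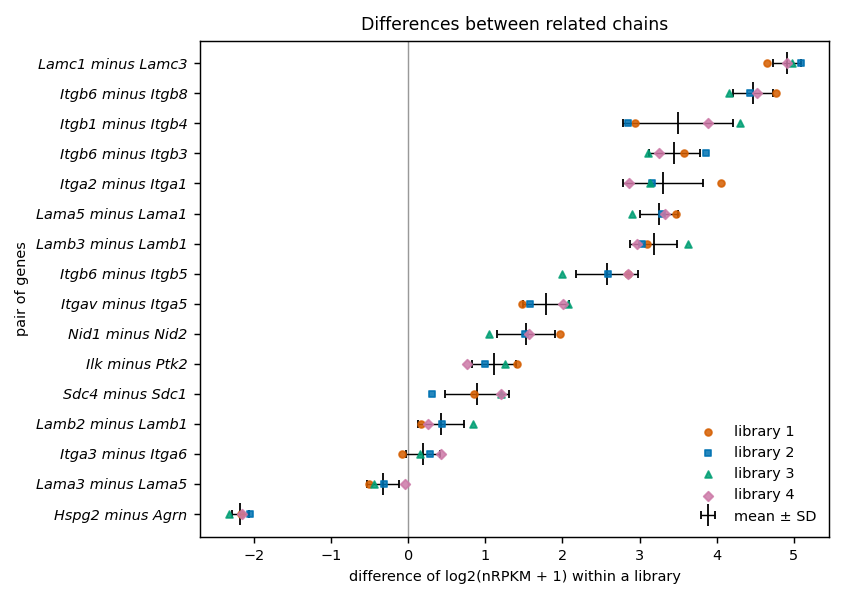
Difference in log2(nRPKM + 1) between 2 related genes within a library (horizontal axis) for the 16 pairs compared, with a point for each library and the mean ± SD as a line. In 15 of the pairs all 4 libraries lie on 1 side of 0, and the pair Itga3 minus Itga6 straddles it.

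Over the 16 pairs, the first gene was higher in all 4 libraries in 13, the second in 2 (Lama3 against Lama5 and Hspg2 against Agrn), and 1 pair was mixed. Which gene stands first was set when the pairs were listed, and pairs of other genes were not counted, so these counts are only a description. Adjusted exact permutation p ranged from 0.133 to 0.25.

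How far each gene varied from library to library was tested in edgeR on the counts, by setting its quasi-likelihood dispersion against the trend of all genes. Of the 37 genes, 28 had enough reads to be tested and none was called at an adjusted p of 0.05, where 0.0152% of the 13156 tested genes were. At an unadjusted p of 0.05, 1 of the 28 passed, against 5.13% of all tested genes. That count moved when a library was left out. It was 5 of 29 without library 4, where 696 of all 13407 tested genes passed. Without library 2 it was 3 of 29, where 640 of all 13317 passed. It was 2 of 28 without library 1 (680 of all 13290) and 1 of 28 without library 3 (619 of all 13360). With all 4 libraries the gene that passed was Itgb4 (adjusted p = 0.754, edgeR), and DESeq2 marked none of the 28 as a dispersion outlier. The widest tested genes, Itgb3 and Itgb4, spanned 3.18 and 3.15 times between libraries, and missing the threshold in a test of 4 libraries does not show that they varied no more than other genes. The coefficient of variation of the 27 genes with a mean of at least 1 nRPKM had a median of 21.0%, close to the 20.2% of all 11904 genes at that level. Within the set it ranged from 5.92% (Lamb2) and 5.97% (Agrn) to 48.9% (Itgb4).

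Of 62 tested genes in the 5 linked lists, none was called at an adjusted p of 0.05, where 0.0152% of all tested genes were. In the same edgeR test 12 of the 62 had an unadjusted p under 0.05, against 5.13% of all tested genes. These were Col17a1 and Tinagl1 of the basement membrane list, the leukocyte chains Itgax and Itgb2, the linkers Fermt1, Parvb, Tns4 and Sdc3, and the ligands Fn1, Tnc, Spp1 and Ltbp1.

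Library 3 held the lowest value of 13 of the 27 genes (48.1%), whereas it held the lowest value of 18.4% of all 11904 genes. They were the alpha integrins Itga1, Itga2, Itga3, Itga5, Itga6 and Itgav, the beta integrins Itgb4 and Itgb6, the laminins Lama3, Lama5 and Lamb1, and Nid1 and Hspg2. Library 3 had 57.2% of the next lowest library for Nid1, 65.1% for Lama3 and 70.6% for Itgb4, but 98.6% for Itgav. Library 1 held the highest value of 10 of the 27 (37.04%), against 22.5% of all genes. Sdc4, Dag1, Lamb3, Lamb2, Itgb5 and Ilk went the other way and were highest in library 3. These counts have no test. Library 3 also stood apart in Xist, and whether its low values go with that difference was not tested. Scaled by total counts alone, library 3 was lowest for 7 of the 27 and for 7.19% of all genes.

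**Figure D4:**
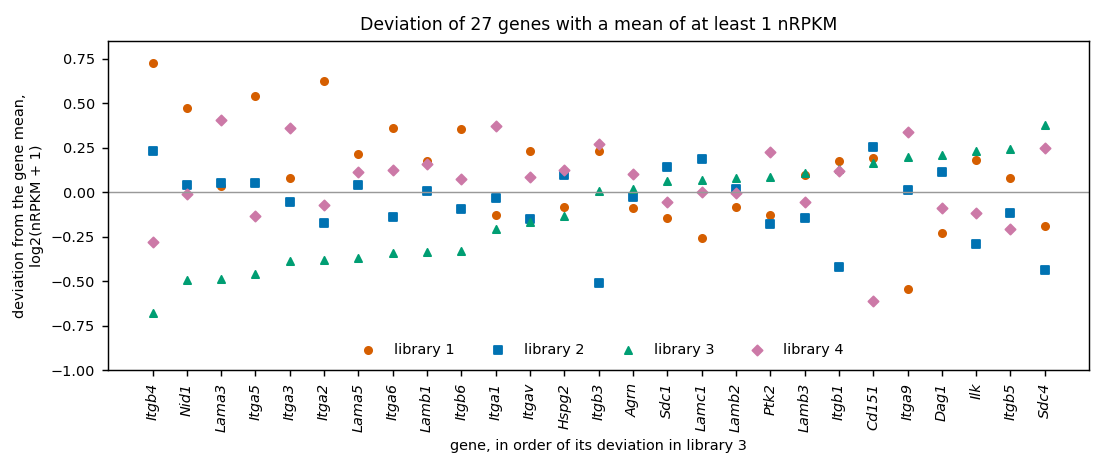
Deviation of each library from the gene's mean in log2(nRPKM + 1) (vertical axis) for the 27 genes with a mean of at least 1 nRPKM, in order of library 3. Library 3 is the lowest point for 13 genes and library 1 the highest for 10.

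Markers of other cell types moved between the same libraries. The 6 basal airway markers, of which 3 had a mean of at least 1 nRPKM and Dapl1 had no reads, summed to 144, 102, 20.01 and 46.7 nRPKM in libraries 1 to 4, with the highest means in Krt5 and Krt6a. The 12 mesenchymal markers, 5 of them with a mean of at least 1, summed to 30.8, 20.9, 7.39 and 15.6, with the highest means in Dcn, which rests on 14.1 nRPKM in library 1, and Col1a1, which was above Dcn in the other libraries. The 9 leukocyte markers, 5 with a mean of at least 1, summed to 73.0, 61.8, 26.9 and 17.8, led by Cd68 and Fcer1g, and Ptprc reached at most 0.696. Type II markers summed to 10481, 16806, 22762 and 17133 nRPKM, led by Sftpc and Sftpb. Each type II marker was lowest in library 1. The high sum of library 3 was mostly Sftpc, at 14834 nRPKM there. Sftpc, Sftpd, Napsa and Lyz2 were highest in library 3. Sftpb, Sftpa1 and Abca3 were highest in library 2, and Lamp3, Slc34a2 and Lpcat1 in library 4. Type I markers summed to between 488 and 650, led by Aqp5 and Ager by mean, and club cell markers to between 150 and 1059, led by Scgb1a1 and Bpifa1. Of the 9 endothelial markers 8 had a mean below 1, led by Esam and then Pecam1 at 0.112 ± 0.0625 (SD, n = 4). Of the 5 mesothelial markers 4 were below 1, with Msln the exception, ahead of Lrrn4, and all 5 nerve and Schwann cell markers were below 1, with the highest means in Ngfr and S100b. The part of these cells in the order of libraries was not tested.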

How the data were processed

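Counts deposited by the authors are, per the file headers, the number of reads aligned uniquely to each gene model. The authors' second value, per the file headers, is a size-factor-adjusted RPKM (nRPKM). GSNAP and build mm9 are named in the submitters' processing notes, while tool versions, the annotation, the use of strand and any filter are not given in the sources used. Uniquely aligned reads miss sequence shared between genes, and RPKM rests on the authors' gene lengths.

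Symbols were matched by Entrez identifier to RefSeq (GRCm38.p6, names only) for 25035 of 28096 identifiers; unnamed identifiers held 2.48% to 3.71% of counts. The chi-square of each pair of libraries was 39.4 to 114 per degree of freedom, so no pair agreed within counting noise, which does not tell separate cultures from repeat preparations. Chain pairs were compared by two-sided exact sign-flip permutation tests on log2(nRPKM + 1), a scale that understates differences of low genes, with Benjamini-Hochberg adjustment. Spread was tested with edgeR 4.0.16 in R 4.3.3 (intercept only, TMM, filterByExpr with a minimum count of 10, quasi-dispersion against its trend), with DESeq2 1.42.0 as an alternative. On simulated counts this edgeR test missed most genes that were raised 4 times in a single library. Shared 50-base words come from the longest protein-coding GENCODE M21 transcript of a gene. A count of 0 allows up to 3 reads, which covers counting error only; 3 reads are 0.247, 0.231, 0.232 and 0.221 CPM in libraries 1 to 4. Alternatives were pseudocounts, CPM without length, level minima, scalings, filters and leaving out each library. All 37 genes, the 3 highest genes of each linked list and the 2 highest of each marker list are named, and further genes were named after their values were seen. A listed gene is not reported here. The 37 genes and all lists were chosen with earlier results of these data known.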

Additional observations from a re-analysis of the deposited data

Results flagged for a closer look

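Of 78 values or shares that were examined over the 4 libraries, 3 had a single library far from the others, where chance gives about 1 in 20. Itgb1 had 55.9 nRPKM in library 2, against 81.8 to 85.1 in the others. Cd151 had 25.6 nRPKM in library 4, against 44.4 to 47.4. Itga2 made up 22.9% of the summed integrin alpha chains in library 1, against 12.9% to 14.5%.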

How the results depend on the processing

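The 16 chain pairs gave 112 values under other pseudocounts, in CPM without a length correction and without each library in turn. Of these, 111 kept their direction, and Ilk minus Ptk2 reversed to -0.21 in CPM. Exact permutation p ranged from 0.125 to 0.5 over these values, and without a library the smallest was 0.25. The Lamb3 share of the beta laminins moved to 77.6% in reads. Calls of varying genes over the whole table were 2 in the edgeR fit, 66 without a filter on low counts, 62 by DESeq2 dispersion outliers, and 0 to 6 without 1 library (0 without library 2 or 3, 6 without library 1). None of the 37 genes was called under any of these settings. Library 3 held the lowest value of 13 of the 27 genes with TMM (19.3% of all genes) or DESeq2 size factors (20.3%), 9 of 20 with a mean of at least 5 nRPKM (14.004% of all genes), and 7 in CPM over total counts (7.19%), alternatives chosen after seeing the data. Genes of the set at 1 nRPKM or more in all libraries numbered 26 or 27 without a library, 27 at a minimum of 0.5, 23 at 2 and 28 at 10 reads. The edgeR fit tested 28 of the 37 genes for spread, and all 37 were tested without the filter on low counts.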
